A study of Mus musculus with 8 samples.

Results

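Genes for mitochondrial protein import, for the respiratory chain and for the mitochondrial ribosome were examined in a map of NF-YA binding in muscle stem cells (MuSCs). Members were all peaks that the deposited table assigns to a protein-coding gene of the families *Tomm*, *Timm*, *Nduf*, *Uqcr*, *Sdh*, *Atp5*, *Cox*, *Mrpl* or *Mrps*, chosen by gene symbol without use of any signal value. This gave 44 of 7196 peaks, which belonged to 38 genes, among 3837 peaks assigned to protein-coding genes. Import had 8 peaks at 6 genes, the respiratory chain with its assembly factors and ATP synthase had 22 peaks at 19 genes, and the mitoribosome had 14 peaks at 13 genes. All 38 gene IDs were found in the GENCODE M21 annotation, and for 43 of 44 peaks the gene had the same coordinates there. A peak could also lie nearer to another gene. For 4 members the closest transcript start belonged to a neighbour, namely *Vmac* at the *Ndufa11* peak, *Rbm10* at the *Ndufb11* peak, *Mir191* at the *Ndufaf3* peak and the noncoding *Gm47438* at the stronger *Atp5f1b* peak.

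The data came from CUT&RUN, in which a nuclease is tethered to an antibody on chromatin so that bound DNA is released and sequenced. Libraries were made from activated, proliferating MuSCs of C57BL/6 mice that had been cultured before the assay, and 2 NF-YA libraries per genotype were compared, Control (titled WT) and Taf4asKO. In Taf4asKO mice a loxP-flanked part of *Taf4a* is removed by a tamoxifen-dependent Cre under *Pax7* control, so that the deletion is limited to cells that express *Pax7* and their progeny. Control mice of the study were littermates that carried the loxP-flanked *Taf4a* alleles as well, with or without the Cre, and a fluorescent *Pax7* reporter (Pax7-ZsGreen) could be present in both genotypes. Tamoxifen was given to adult Taf4asKO mice, and the ages of the mice behind these libraries are not given in the labels. TAF4A is a subunit of the general transcription factor TFIID, and the comparison asks how NF-YA occupancy differs without it. Libraries with unspecific IgG also exist for both genotypes and were not analysed here. The labels do not say whether replicates came from separate animals or cultures, so that p-values measure only the spread between these libraries. Binding data hold no expression levels, and the identity of the cells was therefore not checked with marker genes. A value is the number of reads in a peak after normalisation by the authors with DESeq2, rounded to a whole number, and a lower value can come from fewer cells with bound NF-YA or from less binding per cell, which cannot be told apart.

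Nearly all mitochondrial proteins are encoded in the nucleus, made in the cytosol and carried through the TOM complex of the outer membrane and the TIM complexes of the inner membrane. Respiratory complexes I to IV pass electrons to oxygen while protons are pumped across the inner membrane, and complex V, the ATP synthase, uses the proton gradient. The few proteins encoded by mitochondrial DNA are made on the mitoribosome, all of whose proteins are imported. NF-Y is a trimer whose NF-YA subunit reads the CCAAT box, an element of many promoters, while NRF1, ETS-family factors and SP1 are the factors most often named for promoters of mitochondrial genes.

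The CCAAT copies in the central 200 bases of the strongest peaks (2 of import, 4 of the respiratory chain and 2 of the mitoribosome) are shown because NF-YA is known to read this element, together with those of *Cox7a1* and *Mrpl18*, the peaks with the highest fold changes in Taf4asKO. Each window has 29 bases from GRCm38.p6 (mm10), 5′ to 3′ on the strand that carries the motif, with the pentamer in capitals. The number after the gene name is the distance of the copy from the assigned gene start in bases, negative upstream, and the coordinates are those of the pentamer.
*Tomm40* -209 (chr7:19715645-19715649, minus strand): cggcgtcgcgaaCCAATgaacttgggata
*Tomm40* -342 (chr7:19715778-19715782, minus strand): agccaaggtccaCCAATagtcaaggcatt
*Tomm40* -373 (chr7:19715809-19715813, minus strand): gacatactgtagCCAATtagaatgtgagt
*Tomm40l* -66 (chr1:171222578-171222582, plus strand): atttactagtgaCCAATaggagaggagaa
*Atp5mc1* -85 (chr11:96075753-96075757, minus strand): agctgaagaagaCCAATaagaaggatgga
*Atp5mc1* -188 (chr11:96075856-96075860, minus strand): ttcgggattcgaCCAATcgtaaccccgaa
*Ndufs8* -14 (chr19:3912786-3912790, minus strand): tgagaagctcgcCCAATggcagcatcctg
*Ndufs8* -68 (chr19:3912840-3912844, minus strand): caggaccctaggCCAATcagaccaaagaa
*Ndufs8* -118 (chr19:3912890-3912894, minus strand): tgctcccatcagCCAATtagagaaaaata
*Atp5f1b* -111 (chr10:128083160-128083164, plus strand): caccagtttagaCCAATagctgataagct
*Atp5f1b* -128 (chr10:128083143-128083147, minus strand): tctaaactggtgCCAATctgaaaattctc
*Atp5f1b* -152 (chr10:128083119-128083123, plus strand): agggcggctcctCCAATtaaaaaagagaa
*Atp5f1b* -186 (chr10:128083085-128083089, plus strand): cgttcccatgggCCAATtaggtttcgagg
*Ndufa6* -19 (chr15:82354339-82354343, minus strand): cgaggcttccagCCAATcagagagcccta
*Mrps12* -18 (chr7:28741836-28741840, minus strand): ggaaagatctagCCAATcactaaggagga
*Mrps12* -67 (chr7:28741885-28741889, minus strand): atctgttattgtCCAATcgtcatccttgt
*Mrps12* -107 (chr7:28741925-28741929, minus strand): tcagaatcccttCCAATgaggaaaatgga
*Mrpl41* -9 (chr2:24975105-24975109, plus strand): tcaccagggcgcCCAATgcccagcctcag
*Mrpl41* -59 (chr2:24975155-24975159, plus strand): ctggaggctaagCCAATccgcgcagtcgc
*Cox7a1* -45 (chr7:30184097-30184101, minus strand): aattagatttgtCCAATagggtcagagag
*Cox7a1* -108 (chr7:30184034-30184038, minus strand): tttgggttgaccCCAATgacagtggctca
*Mrpl18* 146 (chr17:12916197-12916201, plus strand): atccctggctcaCCAATcaccgcagacgt
The 3 copies of *Tomm40*, *Ndufs8* and *Mrps12* all read in the direction of their gene. Those of *Ndufs8* started 54 and 50 bases apart and those of *Mrps12* 49 and 40 bases apart, whereas in *Tomm40* the gaps were 133 and 31 bases. The copy shown for *Mrpl18* lies downstream of the gene start.

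NF-YA peaks were found at a minority of the genes of each class. Of 210 genes of these families in the annotation, 38 (18.1%, 95% Wilson interval 13.5% to 23.9%) had an assigned peak, compared to 3200 of 21758 protein-coding genes (14.7%, 14.2% to 15.2%). The share was 6 of 25 import genes (24.0%, 11.5% to 43.4%), 19 of 107 respiratory chain genes (17.8%, 11.7% to 26.1%) and 13 of 78 mitoribosome genes (16.7%, 10.0% to 26.5%). These intervals cover counting error of the genes alone, and they overlapped one another and included the share of all protein-coding genes. Genes were counted by gene ID, and *Atp5o* of the ATP synthase stands under separate IDs that all count as genes without a peak. At ATP synthase 6 of 17 genes had a peak (35.3%, 17.3% to 58.7%). When only peaks within 1000 bases of the start were counted this was 4 of 17 (23.5%, 9.56% to 47.3%), an interval that includes the 10.8% of all protein-coding genes, and 3 of 10 genes of the outer membrane translocase (30.0%, 10.8% to 60.3%) had one. No peak was assigned to the 4 genes of complex II or the 8 genes of complex III, where the upper limits of the intervals were 49.0% and 32.4%.

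**Figure D1:**
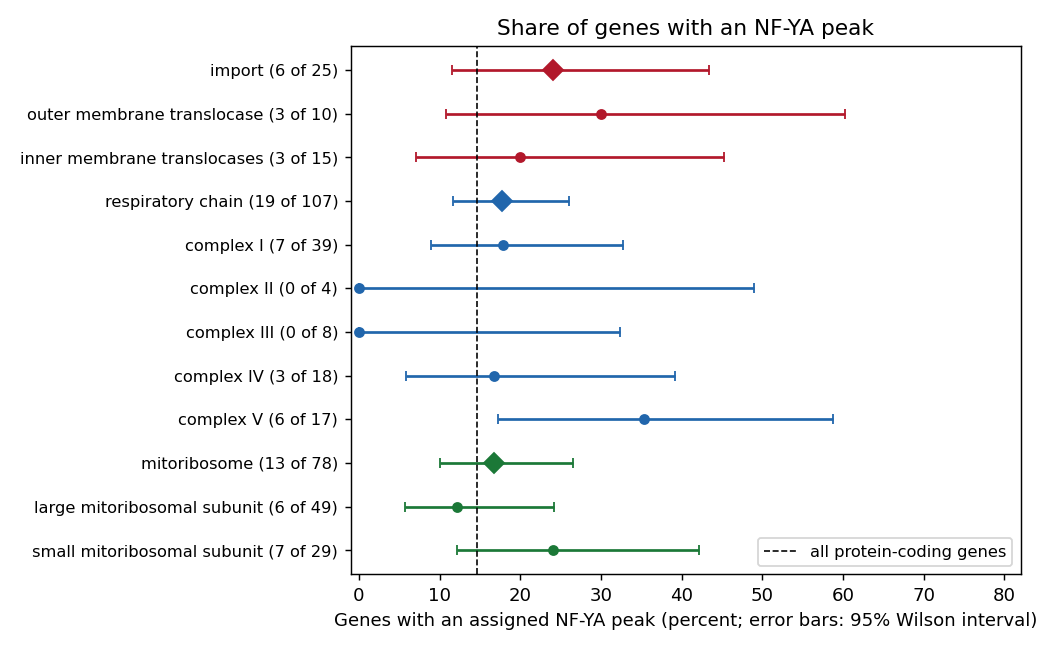
Share of genes with an assigned NF-YA peak on the x axis in percent, for the 3 classes (diamonds) and their complexes (circles), with 95% Wilson intervals and the number of genes on the y axis. The dashed line is the share of all protein-coding genes, 14.7%, which lies inside the intervals of import, respiratory chain and mitoribosome, and below the interval of complex V, for all peaks assigned within 10000 bases.

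At the translocases, peaks were assigned to the channel gene *Tomm40*, to its paralog *Tomm40l* and to the receptor gene *Tomm70*, but not to the genes of the receptors *Tomm20* and *Tomm22* or of the small subunits *Tomm5*, *Tomm6* and *Tomm7*. In the inner membrane *Timm17a* and *Timm50* of the presequence translocase and *Timm22*, the pore of the carrier translocase, had peaks, whereas *Timm23* and the small chaperone genes had none. In complex I the genes with a peak were *Ndufs8*, which encodes an iron-sulphur subunit of the core, and the genes of the accessory subunits *Ndufa6*, *Ndufa11*, *Ndufb1*, *Ndufb11*, *Ndufs6* and *Ndufv3*, together with the assembly factor *Ndufaf3*. Complex IV was represented by *Cox8a*, by *Cox7a1*, the isoform of heart and skeletal muscle, and by *Cox6b2*, the isoform of testis, besides the assembly factor *Cox14*. The peaks at ATP synthase were at *Atp5f1b*, the catalytic beta subunit, at *Atp5mc1* and *Atp5mc2*, which encode the same mature c subunit of the membrane ring, at *Atp5pd* of the peripheral stalk, at *Atp5f1e* and at *Atp5mpl*. The mitoribosome genes comprised 6 of the large subunit (*Mrpl18*, *Mrpl32*, *Mrpl34*, *Mrpl38*, *Mrpl41* and *Mrpl50*) and 7 named for the small subunit (*Mrps9*, *Mrps12*, *Mrps14*, *Mrps15*, *Mrps27*, *Mrps30* and *Mrps36*). The protein of *Mrps36* has since been assigned to the 2-oxoglutarate dehydrogenase complex, but the gene was kept because the members were chosen by symbol.

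Member peaks were mostly promoter peaks. The centre lay within 1000 bases of the assigned start in 36 of 44 peaks (81.8%, Wilson interval 68.0% to 90.5%), compared to 67.2% (65.7% to 68.7%) of the other peaks of protein-coding genes. By class these were 6 of 8 import, 17 of 22 respiratory chain and 13 of 14 mitoribosome peaks. In the median such peaks were centred 61.5 bases upstream of the start, and 28 of the 36 were centred upstream. By the annotation the centre of 25 members was intergenic, that of 8 in a UTR, of 7 in an intron, of 2 in a coding exon and of 2 in a noncoding exon. The median width was 160 bases for import, 188 for the respiratory chain and 206 for the mitoribosome, with a range from 77 to 643 bases.

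Some of the member genes start close to a gene on the other strand. Pairs that point apart and pairs that overlap were not separated. A protein-coding gene on the opposite strand started within 1000 bases of the assigned start for 12 of the 36 members near a start (33.3%, Wilson interval 20.2% to 49.7%), compared to 366 of 2550 other protein-coding peaks near a start (14.4%, 13.1% to 15.8%). The share was 0 of 6 at import peaks, 6 of 17 at respiratory chain peaks and 6 of 13 at mitoribosome peaks, and no test of the difference was made. Both *Atp5pd* peaks belong to 1 such pair, so that these counts are of peaks and not of independent promoters. The partners included *Sars2*, the mitochondrial seryl-tRNA synthetase, at *Mrps12*, the proteasome gene *Psma2* at *Mrpl32*, the chaperonin gene *Tcp1* at *Mrpl18*, and *Mrpl36*, a mitoribosome gene without a peak of its own, at *Ndufs6*. At such a pair the table names 1 gene, and the signal cannot be divided between both genes.

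**Figure D2:**
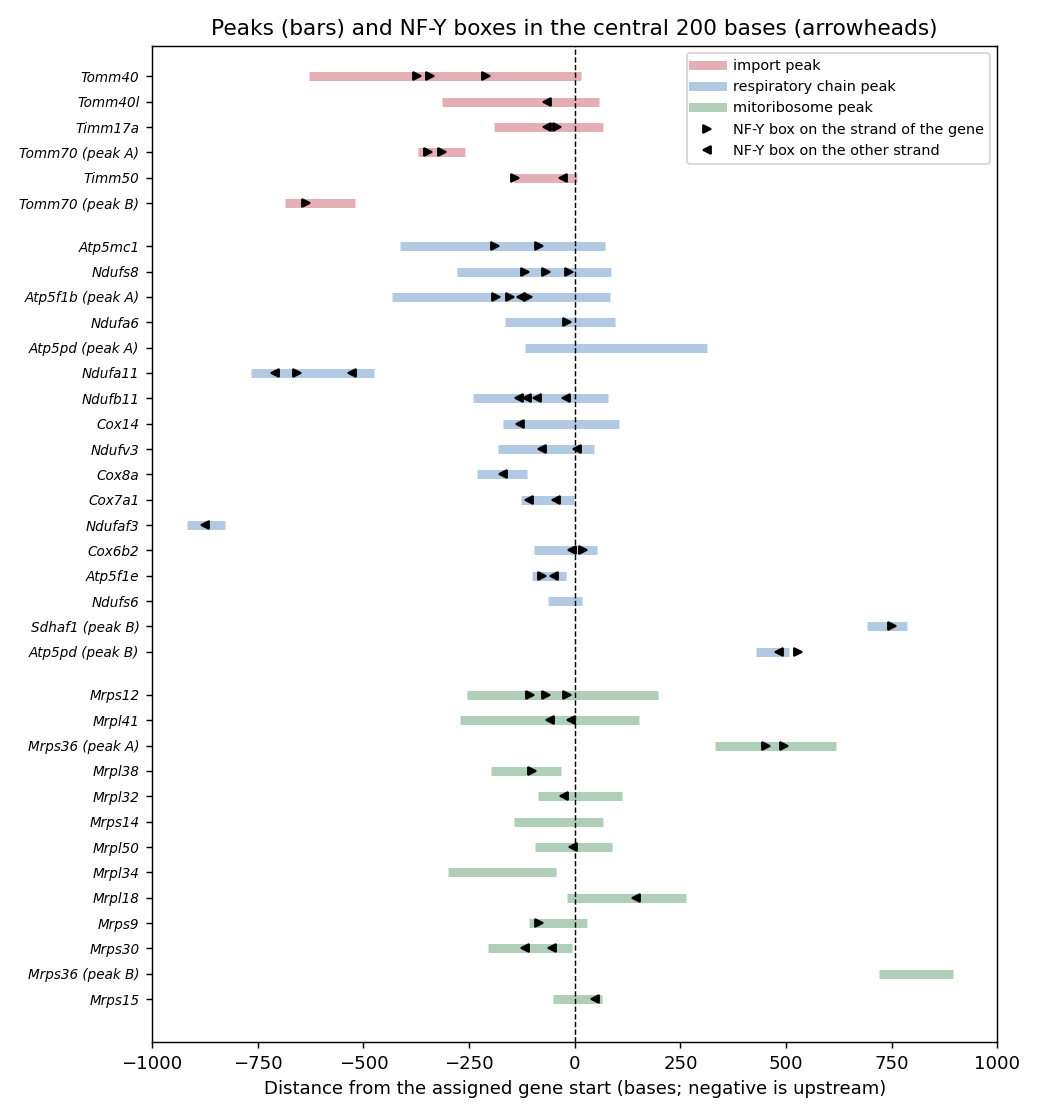
Place of the 36 member peaks within 1000 bases of the assigned gene start, with the distance from the start in bases on the x axis (negative is upstream) and 1 peak per line, sorted by control mean within each class. Bars are the peaks and arrowheads the CCAAT copies (NF-Y boxes) in the central 200 bases, pointing right on the strand of the gene; most copies lie just upstream of the start, with a median of -78.

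The CCAAT pentamer, searched on both strands in the central 200 bases, was present in 38 of 44 members (86.4%, Wilson interval 73.3% to 93.6%) and in 78.5% (77.5% to 79.4%) of all peaks. At peaks narrower than 200 bases this window reached beyond the peak, and the median width of members was 199 bases. Within 1000 bases of a start the share was 86.1% (71.3% to 93.9%) of the 36 members and 88.2% (86.8% to 89.3%) of the other protein-coding peaks. By class it was 8 of 8 import peaks (lower limit 67.6%), 20 of 22 respiratory chain peaks (90.9%, 72.2% to 97.5%) and 10 of 14 mitoribosome peaks (71.4%, 45.4% to 88.3%). At least 2 copies were found in 18 of the 36 members within 1000 bases of a start (50%), compared to 51.0% of the other promoter peaks. By class these were 4 of 6 import, 10 of 17 respiratory chain and 4 of 13 mitoribosome peaks (66.7%, 58.8% and 30.8%). The interval for respiratory chain peaks, 36.0% to 78.4%, and that for mitoribosome peaks, 12.7% to 57.6%, overlapped, and both included the share of the other promoter peaks. *Ndufb11* and *Atp5f1b* had the most copies in the centre, with 4 each, although the *Ndufb11* peak was the one that lay nearer to the start of *Rbm10*.

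The 6 members without the pentamer in the centre were the *Ndufs6* peak, the stronger *Atp5pd* peak, the peaks of *Mrps27*, *Mrps14* and *Mrpl34*, and the weaker *Mrps36* peak. In *Mrps27* and *Atp5pd* the wide peaks carried 4 and 3 copies outside the central window, so that 4 members had none in the whole peak. Copies in the members near a start were spread over both strands, with 29 of 57 (50.9%) in the direction of the gene, and 34 of 57 (59.6%, 46.7% to 71.4%) fell in the 150 bases before the start, compared to 57.2% (55.7% to 58.7%) of the copies in the other promoter peaks. The context preferred by NF-Y, with purines at both positions before the pentamer, C or G directly behind it and a purine next, was complete in 16 of the 55 copies in these members with both flanks inside the window (29.1%) and in 43.7% of the copies in the other promoter peaks. In the same 200 bases the GC box GGGCGG was found in 16 of the 36 members near a start (44.4%, 29.5% to 60.4%) and in 56.8% of the other promoter peaks. Over peaks at any distance it was found in 36.4% of members, in 44.6% of the other protein-coding peaks and in 27.8% of all peaks, so that its direction depends on the peaks compared. Near a start the ETS-type site CCGGAAG was found in 13.9% of members (6.08% to 28.7%) against 9.18%, the NRF1-type site (GCGC, any base, TGCGC) in 11.1% (4.41% to 25.3%) against 3.53%, and TATAAA in 2.78% (0.492% to 14.2%) against 3.53%. All motifs were searched on both strands, and a match describes the letters and no binding site.

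RefSeq promoters of GRCm38.p6, from 250 bases before to 50 bases after the start, allowed a comparison with the genes that had no peak. They were found for 35 of the 38 member genes and for 142 genes of the same families without a peak. CCAAT was present in 27 of 35 promoters with a peak (77.1%, Wilson interval 61.0% to 87.9%), in 43 of 142 without (30.3%, 23.3% to 38.3%) and in 37.9% of all 27025 promoters. For the NRF1-type site the shares lay close together. It was found in 7 of 35 (20.0%) promoters with and 28 of 142 (19.7%) without an NF-YA peak, compared to 4.78% of all promoters. The ETS-type site was present in 11 of 35 (31.4%) and 48 of 142 (33.8%), compared to 9.12% of all. GGGCGG was found in 54.3% and 47.2%, compared to 35.9% of all. TATAAA was found in 0 of 35 promoters with a peak, where the upper limit of the interval was 9.89%, in 15 of 142 without (10.6%) and in 14.2% of all.

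**Figure D3:**
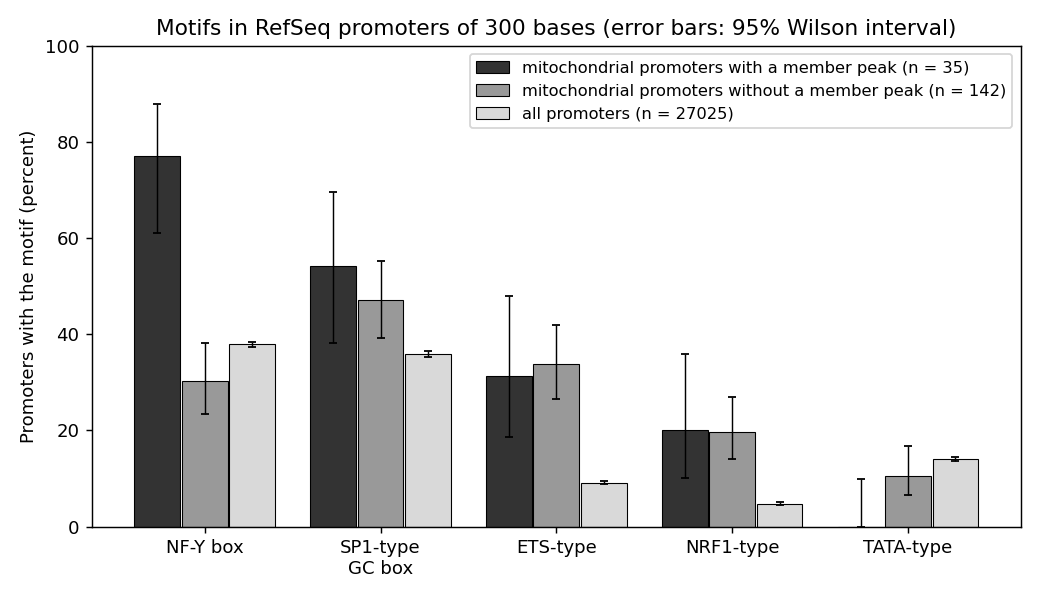
Percent of RefSeq promoters of 300 bases that hold each motif on either strand, for mitochondrial genes with an NF-YA peak (n = 35), for those without (n = 142) and for all promoters (n = 27025), with 95% Wilson intervals as error bars. The NF-Y box differs between genes with and without a peak (77.1% and 30.3%), whereas the ETS-type and NRF1-type sites are at a similar height in both and above all promoters.

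The 4 libraries differed in depth, which sets the precision of the values. From the regular gaps between values 1 read was worth 1.04 and 3.26 in control replicates 1 and 2, and an estimated 0.431 and 0.681 in Taf4asKO, so that 351696, 111265, 734552 and 505241 reads lay in peaks. Both control libraries had fewer reads than both Taf4asKO libraries, and this difference and the genotype cannot be told apart. The median member peak held 46.9 and 13.9 reads in the control libraries and 96.2 and 78.6 reads in the Taf4asKO libraries. In control replicate 2 a value of 3 was a single read.

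The strongest member by far was *Tomm40*, which encodes the channel through which precursors cross the outer membrane. Its peak (chr7:19715424-19716066, centre 307 bases upstream of the start, in an intron of the antisense gene *Gm20512*) had a control mean of 1090 ± 123 (SD, n = 2), which ranked 4 of 7196 peaks. It was also wide, and its control value per 100 bases of peak was 169.5, compared to a median of 23.4 over all members. The peak held 9 copies of CCAAT over 643 bases, of which 3 were central. *Tomm40l* followed with 164 and 111 in the control libraries, and *Timm17a* with 65 and 59. The other import peaks had control means under 30. As a class the import peaks had a median control value of 23.8 (range 7.50 to 1090), which was 44.5 for the 6 peaks within 1000 bases of a start, and a median of 18.8 per 100 bases.

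The respiratory chain peaks had a median control value of 37.0, with a range from 3 to 325, and of 59.0 for those within 1000 bases of a start. *Atp5mc1* was the strongest with 321 and 329 in the control libraries. *Ndufs8* had 241 and 251, and the stronger *Atp5f1b* peak had 230 and 209. The control replicates thus differed little at these 3 peaks, whereas at the strong import peak of *Tomm40l* they had 164 and 111. *Ndufa6* had 151 and 153, and its peak of 259 bases was narrower than those of the other 3, with 58.7 per 100 bases, compared to 67.0 for *Atp5mc1*, 67.6 for *Ndufs8* and 42.5 for *Atp5f1b*. The weakest was the second *Atp5pd* peak with 3 in each library. Per 100 bases the median of the class was 23.4 in control.

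The mitoribosome peaks had a median control value of 51.0, ranging from 12.5 to 262, and of 23.4 per 100 bases. *Mrps12*, the bacterial S12 homolog at the decoding centre, was the strongest with 240 and 284 in control. *Mrpl41* had 165 and 134, *Mrps27* 151 and 127, and the stronger *Mrps36* peak 76 and 72. The lowest control mean was that of *Mrps15*. All 14 mitoribosome peaks passed the minimum mean of 10 used for the test, compared to 7 of 8 import and 16 of 22 respiratory chain peaks. Other promoter peaks of protein-coding genes had a median of 55.0 and of 24.8 per 100 bases. For the promoter peaks of the import, respiratory chain and mitoribosome classes the medians were 44.5, 59.0 and 51.0, and per 100 bases 24.2, 25.0 and 24.1.

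**Figure D4:**
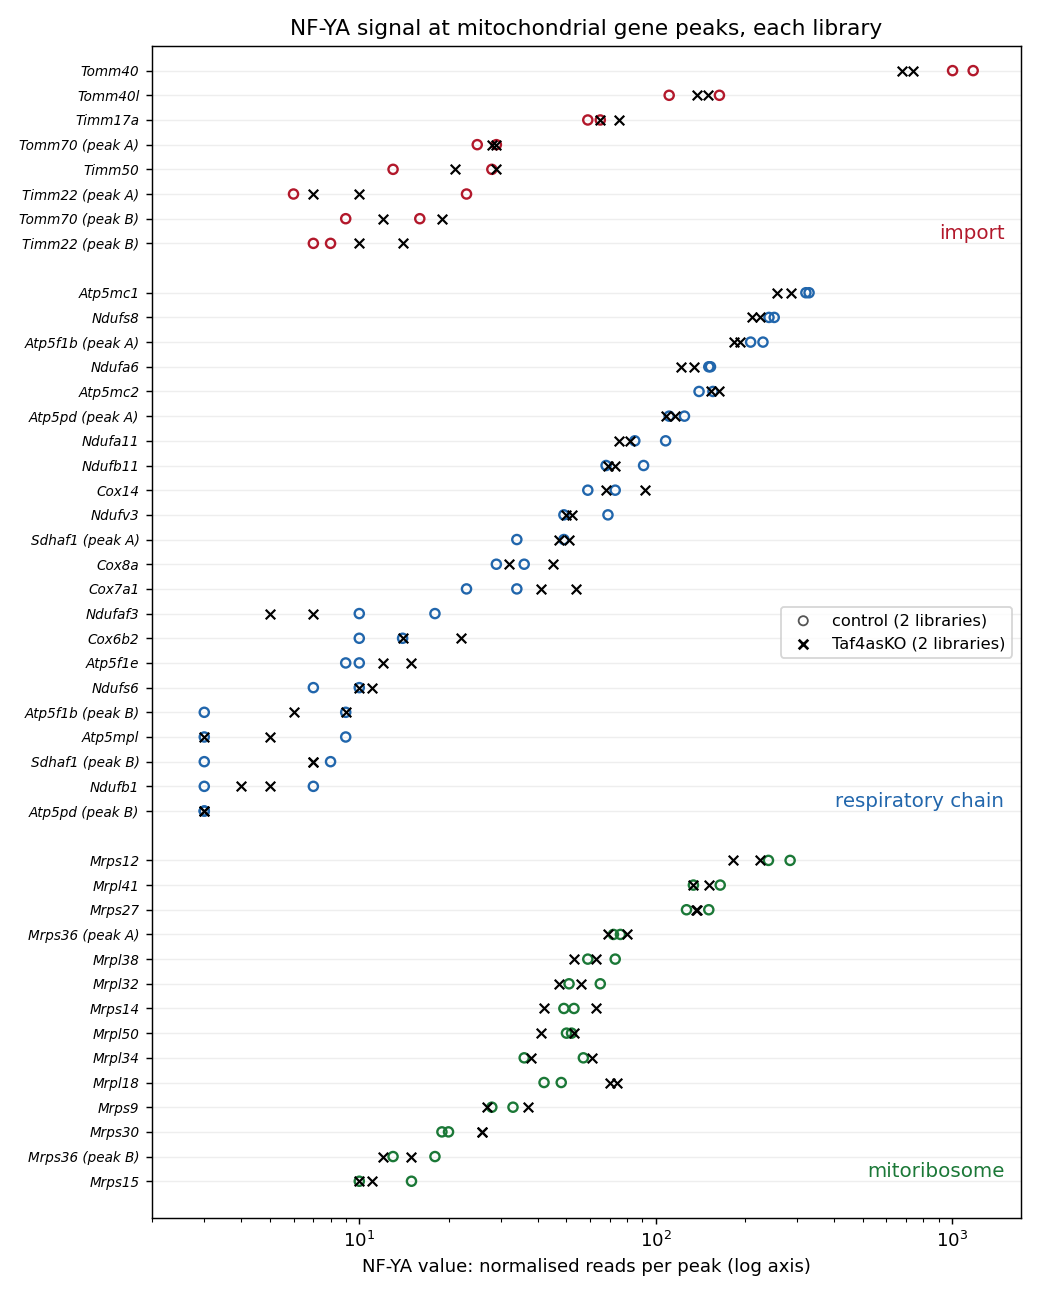
NF-YA values of the 44 member peaks on a log x axis, 1 peak per line sorted by control mean within each class, with 2 control libraries as open circles and 2 Taf4asKO libraries as crosses. For genes with 2 peaks the stronger is peak A. At *Tomm40* both crosses (676 and 736) lie left of both circles (1003 and 1177), while for most other members circles and crosses overlap.

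To determine how NF-YA occupancy of these genes depended on TAF4A, the genotypes were compared with limma on log2(value + 1) over all 4746 peaks whose mean reached 10, with Benjamini-Hochberg adjustment over these peaks. Of 37 tested members 1 (2.70%) was called at an adjusted p under 0.05, compared to 0.948% of all tested peaks, and this peak, *Tomm40*, was lower in Taf4asKO, as were 0.611% of all tested peaks. A single call is no result about the members as a group. Of the respiratory chain peaks 0 of 16 and of the mitoribosome peaks 0 of 14 were called by limma, with 1 and 2 at an unadjusted p under 0.05. Both Taf4asKO values lay below both control values in 8 of 37 members (21.6%), compared to 28.6% of all tested peaks. Both lay above in 4 of 37 (10.8%), compared to 19.3%. No test of these differences in share was made. The balance of all calls depended on the scaling, with 29 of 45 lower in Taf4asKO as deposited, 97 of 129 with equal library medians, 31 of 61 with equal library totals and 26 of 80 when the libraries were centred on the strong peaks, those whose mean reached 100.

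*Tomm40* had values of 1003 and 1177 in the control libraries and 676 and 736 in the Taf4asKO libraries, which stand for 960 and 361 reads and for about 1567 and 1081 reads. Both Taf4asKO libraries were lower than both control libraries, and the distance between the groups was larger than that within either. On the log2 scale Taf4asKO differed from control by -0.62 (SE 0.111, limma adjusted p = 0.0404). Of the 29 peaks that were lower in Taf4asKO, *Tomm40* had the highest control mean. The call was lost when any of the 4 libraries was left out, with limma adjusted p-values of 0.188 and 0.250 without control replicates 1 and 2 and 0.744 and 0.607 without Taf4asKO replicates 1 and 2. The fold change remained negative in these fits, from -0.74 to -0.51. The call was lost as well without a minimum on the mean, when 7196 peaks were tested (limma adjusted p = 0.285). When the libraries were centred on the strong peaks it was -0.40 and still called (limma adjusted p = 0.0315).

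In the deposited scaling most strong peaks had lower values in Taf4asKO, and the value of *Tomm40* stands beside this. Of the 11 members with a mean of at least 100, 9 (81.8%) had a negative fold change, compared to 84.7% of the 971 peaks of this strength. The median log2 fold change was -0.17 for these members and -0.22 for all peaks of this strength, and both Taf4asKO values lay below both control values in 6 of the 11 and in 573 of the 971. For the 10 members with means of 50 to 100 the median was -0.07, compared to -0.06, and for the 9 members with means of 20 to 50 it was 0.23, compared to 0.07. A negative fold change was found in 5 of the 10 (50%), compared to 57.0% of all peaks of the same strength, and in 1 of the 9 (11.1%), compared to 44.4%. For the 7 members with means of 10 to 20 the median was -0.18, compared to 0.16 for all peaks of this strength, with a negative value in 57.1% and 40.3%. The part of depth in this trend was not tested. With scaling to equal totals the median of all tested peaks moved from -0.04 to 0.10, and that of the strong peaks from -0.22 to -0.08. Centring on strong peaks, which sets their median near 0 by construction, moved that of all tested peaks to 0.18.

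**Figure D5:**
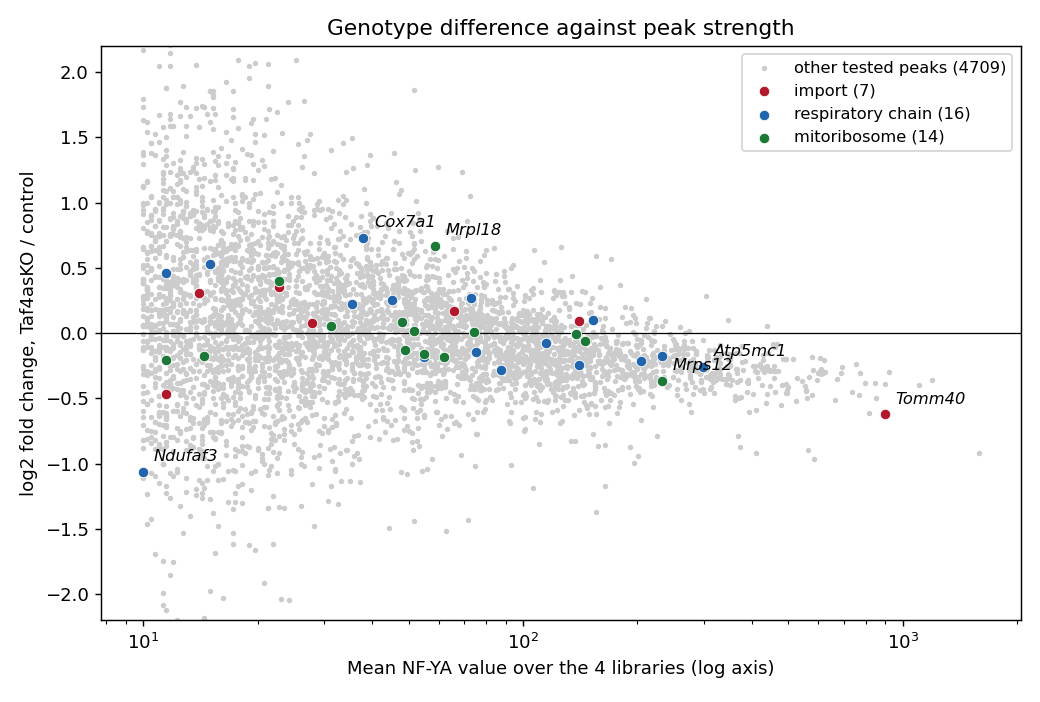
Log2 fold change between Taf4asKO and control on the y axis against the mean value of the 4 libraries on a log x axis, for 4709 other tested peaks (grey) and the tested members of the 3 classes (coloured). 32 peaks with changes beyond the y axis are not drawn, and 0 of them are members. *Tomm40* lies at the lower right, at -0.62, and the other members lie within the cloud of peaks of the same strength.

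The 3 classes had median log2 fold changes near 0. The median was 0.09 for the 7 tested import peaks, -0.11 for the 16 respiratory chain peaks and -0.04 for the 14 mitoribosome peaks, compared to -0.04 for all tested peaks. Equal library totals and centring on strong peaks add nearly the same amount to every peak. The class medians moved with that of all tested peaks, to 0.24, 0.03 and 0.11 with equal totals, where all tested peaks had 0.10, and to 0.31, 0.11 and 0.19 after centring, where all had 0.18. The signs of the respiratory chain and mitoribosome medians thus turned with this shift. That of import started above 0 and could not turn with it, and no direction is given for any class. Without control replicate 1 the respiratory chain and mitoribosome medians were 0.06 and 0.05, and without Taf4asKO replicate 1 that of the mitoribosome was 0.04.

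In the respiratory chain, 6 of 16 tested peaks (37.5%) had both Taf4asKO values below both control values, compared to 28.6% of all tested peaks. They were *Atp5mc1*, *Ndufs8*, the stronger *Atp5f1b* peak, *Ndufa6*, *Ndufa11* and *Ndufaf3*, of which the first 4 had means of at least 100, where such a difference was found in 573 of all 971 peaks. *Atp5mc1* had 321 and 329 in control against 256 and 287 in Taf4asKO. *Ndufs8* had 241 and 251 against 211 and 225. *Ndufa6* had 151 and 153 against 122 and 135. In all 3 the groups did not overlap but lay close together, and none was called. *Ndufaf3*, an assembly factor of complex I, had the lowest fold change of all members, namely 18 and 10 in control against 7 and 5 in Taf4asKO (-1.06, SE 0.520, limma adjusted p = 0.311). The peak just reached the minimum mean of 10, its lower control value rested on 3.07 reads, and it was centred 13 bases from the start of *Mir191*. *Ndufa11* had 85 and 108 in control against 75 and 82 in Taf4asKO (-0.29, SE 0.194, limma adjusted p = 0.457).

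The isoform gene *Cox7a1*, which is known for its role in the cytochrome oxidase of mature muscle, had the highest fold change of the members. Its values were 34 and 23 in control against 41 and 54 in Taf4asKO. Both Taf4asKO libraries were above both control libraries, but the lower control value rested on 7.05 reads. The log2 fold change was 0.73 (SE 0.282, limma unadjusted p = 0.0273, adjusted p = 0.219), so that the difference did not pass the test. *Cox6b2* had 14 and 10 in control against 14 and 22 in Taf4asKO, which overlapped (0.53, SE 0.404, limma adjusted p = 0.498). At ATP synthase, *Atp5f1e* had 9 and 10 in control against 12 and 15 in Taf4asKO, without overlap but at a weak peak (0.46, SE 0.426, limma adjusted p = 0.586). *Cox14* and *Cox8a* overlapped between genotypes as well.

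At the mitoribosome, *Mrpl18* of the large subunit had 48 and 42 in control against 70 and 74 in Taf4asKO. The replicates agreed closely and the groups were apart, but the lower control value rested on 12.9 reads. The log2 fold change was 0.67 (SE 0.207, limma unadjusted p = 0.00933), the smallest unadjusted p among the members after *Tomm40*, but it was not called (adjusted p = 0.148). The centre of the peak lies in a UTR, 122 bases downstream of the *Mrpl18* start and inside both *Mrpl18* and *Tcp1*, so that it can belong to either gene. *Mrps30* had 19 and 20 in control and 26 in both Taf4asKO libraries, without overlap (0.40, SE 0.291, limma adjusted p = 0.484). Its control value of 20 rested on 6.13 reads. The strongest mitoribosome peak, *Mrps12*, went the other way, with 240 and 284 in control against 182 and 224 in Taf4asKO (-0.37, SE 0.158, limma unadjusted p = 0.0425, adjusted p = 0.261). *Mrps15* had 15 and 10 against 10 and 11 (-0.21, SE 0.437, limma adjusted p = 0.829), with overlap. Its log2 fold change turned to 0.015 after centring on strong peaks and to 0.063 without control replicate 1. *Mrps27* and *Mrpl41* showed overlapping values, with 137 and 138 and with 134 and 151 in Taf4asKO.

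Apart from *Tomm40*, the other 6 tested import peaks overlapped between genotypes. *Timm50* had 28 and 13 in control against 21 and 29 in Taf4asKO (0.35, SE 0.393, limma adjusted p = 0.657). Its log2 fold change was 0.88 without control replicate 1 and turned to -0.17 without control replicate 2. *Timm17a* had 75 and 65 in Taf4asKO, which touched the higher control value of 65. *Tomm40l*, the paralog of the channel gene, had 138 and 150 in Taf4asKO, between its control values of 164 and 111. The channel gene and its paralog thus had different values, but a difference between their fold changes was not tested.

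A pair of peaks each was found at 6 genes, and their peaks differed in strength. *Tomm70* had 25 and 29 in control against 28 and 29 in Taf4asKO at the peak centred 315 bases upstream. At its peak 603 bases upstream the values were 9 and 16 against 19 and 12 (0.31, SE 0.440, limma adjusted p = 0.734). There the log2 fold change turned to -0.076 without control replicate 1 and to -0.004 without Taf4asKO replicate 1. The *Timm22* peaks were not at the promoter, but 9324 and 8261 bases downstream of the start in the UTR. The former had 6 and 23 in control against 10 and 7 in Taf4asKO (-0.47, SE 0.612, limma adjusted p = 0.707), so that the control replicates differed more than the genotypes. Without control replicate 1 the log2 fold change of the former was -1.355. The latter had 8 and 7 against 10 and 14, without overlap, but was too weak to be tested. *Sdhaf1*, an assembly factor of complex II, had its stronger peak 8197 bases away with 34 and 49 in control against 47 and 51 in Taf4asKO, and 3 central copies of CCAAT. Its peak at 738 bases had 8, 3, 7 and 7. For *Atp5f1b* the second peak lay in a coding exon with 9, 3, 6 and 9 in the 4 libraries, and for *Atp5pd* in an intron. *Mrps36* had 76 and 72 against 69 and 80 at the stronger peak and 18 and 13 against 15 and 12 at the weaker, which held no CCAAT.

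The peaks farthest from their assigned start were both *Timm22* peaks and that of *Mrps27*, 8386 bases inside the gene. The *Mrps27* peak was nevertheless among the strongest of the mitoribosome class and 612 bases wide. With *Atp5mc2* at 1458 bases it was 1 of 2 members with a mean of at least 100 that were centred more than 1000 bases from the assigned start. *Atp5mc2* had 156 and 140 in control against 154 and 163 in Taf4asKO, with overlap.

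Genes of the same pathways whose symbols fall outside the families were compared in the same fit. Of 18 further import genes 2 had a peak, the mitochondrial chaperone cofactor *Grpel1* (132 and 72 in control, 118 and 125 in Taf4asKO) and *Samm50* of the outer membrane sorting machinery. Of 32 further respiratory chain and assembly genes 9 had 12 peaks, of which 9 were tested. Those included *Lyrm7*, which matures the iron-sulphur protein of complex III, with 157 and 137 in control against 122 and 127 in Taf4asKO, and *Ecsit* and *Tmem126b* of complex I assembly. In 4 of the 9 both Taf4asKO values were below both control values, compared to 28.6% of all tested peaks, and the median log2 fold change was -0.18. Of 21 genes for mitochondrial translation 2 had a peak. The only tested one, 2683 bases from the *Aurkaip1* start, had 29 and 23 in control against 31 and 33 in Taf4asKO (0.30, limma adjusted p = 0.580). The *Aurkaip1* peak 20 bases from the start had 5 and 13 in control against 9 and 5 in Taf4asKO and was too weak to be tested. Of 16 genes for the nuclear control of mitochondria 4 had a peak, namely *Tfb1m*, *Pprc1*, *Yy1* and *Polg*. *Tfb1m*, the rRNA methyltransferase of the mitochondrial small subunit, was the strongest of these 4 with 139 and 176 in control against 124 and 165 in Taf4asKO. Over the 4 lists 16 peaks were tested, and limma called 0 of them in either direction, with 0 at an unadjusted p under 0.05. No peak was assigned to *Nrf1*, *Gabpa*, *Ppargc1a* or *Tfam*.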

How the data were processed

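By the submitters' processing notes reads were trimmed with Trimmomatic 0.39, aligned to mm10 with STAR 2.7.11a, freed of duplicates with Picard 3.1.1 and counted with featureCounts over merged peaks. The deposited score per peak is the count after the authors normalised it with DESeq2 (1.36.0) and rounded it. Distances to starts are as deposited. No count model was run, because the reads behind Taf4asKO values, worth less than the rounding unit, stayed ambiguous (from replicate 1 alone, 0.463 per read).

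For genotype differences log2(value + 1), a scale that understates changes of low peaks, was fitted with limma 3.58.1 (R 4.3.3) and a trended variance wherever the mean value reached 10. An exact permutation test of 2 against 2 libraries cannot go below p = 0.333. On simulated data 121 of 152 tested peaks with a true log2 change of 2 were called, and 1 unchanged peak among 4880 tested. Detection of a smaller change, such as the -0.62 of *Tomm40*, was not tested. Motifs were searched with pysam 0.24.0 (Python 3.11.15) in GRCm38.p6, and features were taken from GENCODE M21.

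Members, gene lists and tests were chosen with earlier results of these data known. Peaks named with values were the calls, per class the 4 highest control means and the 2 highest and 2 lowest fold changes, the peaks of genes with 2 peaks and the 3 farthest from a start. Others were chosen after seeing values. Alternatives tried were 3 other scalings, a pseudocount of 5, no minimum, weights from reads, a replicate block, a threshold of 0.1, other motif windows and distances, and leaving out each library.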

Additional observations from a re-analysis of the deposited data

How the results depend on the processing

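*Tomm40* was the only member called in the fits with other scalings, a pseudocount of 5, weights from reads, the replicate block (1 call, log2 fold change -0.62, limma adjusted p = 0.0169) and a threshold of 0.1. Without a minimum 0 members were called (3 at an unadjusted p under 0.05), with a limma adjusted p of 0.285 for *Tomm40*, and the number tested rose from 4746 to 7196 peaks. Leaving out each library gave 0 member calls each time and 1 to 6 members at an unadjusted p under 0.05, and 0 calls among all peaks in each of these limma fits (225 to 1088 at an unadjusted p under 0.05), in which 1 group has a single library assumed to vary like the other. Among all tested peaks the calls numbered 45, 0 without a minimum (1015 of 7196 at an unadjusted limma p under 0.05), 31 with the replicate block, 61 with equal library totals, 58 with a pseudocount of 5, 80 after centring on strong peaks, 129 with equal library medians and 275 with weights. After centring on strong peaks the median log2 fold change moved to 0.11 for respiratory chain and 0.19 for mitoribosome peaks.

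The median control values of import and the respiratory chain moved most when only peaks near a start were counted, to 44.5 and 59.0. The other settings moved these control medians less. The sign turned for the respiratory chain median (0.03 with equal totals, 0.06 without control replicate 1) and the mitoribosome median (0.11 with equal totals, 0.05 and 0.04 without replicate 1 of control or Taf4asKO). Scalings shift every peak by nearly the same amount, so that a sign turned by them shows this shift. Among the 12 peaks refitted by name, it turned for the weaker *Tomm70* peak (-0.076 to 0.69 when each library was left out), for *Timm50* (-0.17 to 0.88) and for *Mrps15* (-0.48 to 0.063, and 0.015 after centring on strong peaks). The causes were not tested. The shares of peaks with CCAAT and of genes with a peak stayed inside their intervals. The planned count models were not run. There were 2 libraries per genotype and a median of 13.9 reads per member peak in control replicate 2. Small differences at weak peaks can have been missed, and their detection was not tested.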
